A study of Mus musculus with 6 samples.

Results

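Proteasome genes were examined in 6 primary thymic lymphomas of mice that lack normal Ikaros function. The members were the probe sets with 1 gene symbol in which Psma, Psmb, Psmc, Psmd, Psme, Psmf or Psmg is followed by a digit. They were 49 genes read by 103 probe sets, of 18193 genes with a named probe set and 45101 probe sets in all, and each gene was read by its probe set with the highest mean over the 6 arrays. The symbols of Psmc3ip and Psme3ip1 fit the pattern although these genes encode no proteasome subunit, so 47 genes remained as subunits, regulators and assembly factors. The only probe set found for Psme2, the partner of Psme1, carries a second symbol and was left out by the rule.

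In 3 tumours both Notch1 alleles were floxed (IkL/L Notch1f/f CD4-Cre+), and the mice were aged 8 to 10 weeks. The other 3 tumours had wild-type Notch1 (IkL/L Notch1+/+ CD4-Cre+), and these mice were aged 18 to 20 weeks. All 6 mice carried the IkL allele of Ikzf1, the Ikaros gene, on both chromosomes and a CD4-Cre transgene, whose promoter works in thymocytes from the stage at which CD4 appears. The labels record loss of the Notch1 promoter and exon 1 in the floxed group. Genotype and age changed together and cannot be told apart. Each tumour came from 1 mouse and was read by 1 array, as a MAS5 signal intensity per probe set, from cells collected without a sorting step.

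The proteasome is the protease that breaks down proteins tagged with ubiquitin. Its barrel, the 20S core, has outer rings of alpha subunits and inner rings of beta subunits, and the beta subunits Psmb5, Psmb6 and Psmb7 hold its cutting sites. The 19S cap at the ends of the barrel recognises ubiquitin, removes it and unfolds the substrate with a ring of ATPases. In lymphocytes and in cells exposed to interferon, Psmb8, Psmb9 and Psmb10 take the places of Psmb5, Psmb6 and Psmb7 to form the immunoproteasome, which shapes the peptides shown on MHC class I. Psmb11 takes the place of Psmb5 in the cortical epithelium of the thymus.

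The sequences upstream of the 3 immunoproteasome genes and of their constitutive counterparts are shown because the genotype comparison below sets these genes against each other. Those of Psmc2, Psmc5 and Psmc6 are shown because these ATPase genes had lower values in every Notch1f/f tumour. Each is the 150 bases before the annotated start, 5′ to 3′ on the strand of the gene, from RefSeq (GRCm38.p6). The Psmb8 stretch is chr17:34198045-34198194 (+ strand) and the Psmb9 stretch chr17:34187331-34187480 (- strand). The Psmb10 stretch is chr8:105938393-105938542 (- strand), the Psmb5 stretch chr14:54617996-54618145 (- strand) and the Psmb6 stretch chr11:70525207-70525356 (+ strand). The Psmc2 stretch is chr5:21785125-21785274, the Psmc5 stretch chr11:106256035-106256184 and the Psmc6 stretch chr14:45329674-45329823, all on the + strand. Psmb7 had no entry in the table used. Capitals mark matches to the motifs named after the sequences.
Psmb8: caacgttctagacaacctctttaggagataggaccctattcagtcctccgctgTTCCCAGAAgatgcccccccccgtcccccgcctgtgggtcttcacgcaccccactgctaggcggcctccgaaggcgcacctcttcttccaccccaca
Psmb9: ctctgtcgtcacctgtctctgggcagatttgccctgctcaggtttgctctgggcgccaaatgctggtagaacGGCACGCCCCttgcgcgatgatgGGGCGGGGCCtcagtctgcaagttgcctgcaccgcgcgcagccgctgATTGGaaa
Psmb10: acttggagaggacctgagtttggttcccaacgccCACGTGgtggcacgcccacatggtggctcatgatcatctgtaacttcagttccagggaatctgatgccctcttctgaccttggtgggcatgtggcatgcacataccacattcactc
Psmb5: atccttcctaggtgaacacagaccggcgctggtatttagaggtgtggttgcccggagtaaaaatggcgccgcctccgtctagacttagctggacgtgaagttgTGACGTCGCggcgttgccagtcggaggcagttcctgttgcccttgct
Psmb6: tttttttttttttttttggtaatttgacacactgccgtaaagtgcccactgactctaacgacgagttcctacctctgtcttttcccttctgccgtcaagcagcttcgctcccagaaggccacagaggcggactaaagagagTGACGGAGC
Psmc2: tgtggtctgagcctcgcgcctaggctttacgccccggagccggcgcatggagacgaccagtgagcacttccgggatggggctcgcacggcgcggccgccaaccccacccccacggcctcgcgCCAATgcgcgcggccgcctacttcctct
Psmc5: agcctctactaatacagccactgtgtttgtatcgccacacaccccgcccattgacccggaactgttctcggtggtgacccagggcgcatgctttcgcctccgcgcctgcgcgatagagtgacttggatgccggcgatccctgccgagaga
Psmc6: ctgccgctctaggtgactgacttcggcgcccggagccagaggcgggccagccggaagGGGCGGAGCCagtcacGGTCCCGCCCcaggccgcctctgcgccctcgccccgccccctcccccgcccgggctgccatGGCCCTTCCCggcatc
The motifs searched on both strands were the NF-Y box CCAAT, an interferon-stimulated response element of GAAA and GAAA with 2 bases between, a STAT element TTCNNNGAA, an NF-kB site of GGG and CC with 5 bases between, an antioxidant response element TGACNNNGC and the E-box CACGTG, in the 250 bases before the start. A total of 39 of the 47 genes had 41 such windows in the table. The capitals are a STAT element in Psmb8, an NF-Y box and 2 NF-kB sites in Psmb9, an E-box in Psmb10, an antioxidant response element in Psmb5 and in Psmb6, an NF-Y box in Psmc2 and 3 NF-kB sites in Psmc6. No motif match lay in the stretch shown for Psmc5. The antioxidant response element was held by 5 of the 41 proteasome windows (12.2%) and by 10.2% of all 32851 windows. The interferon-stimulated response element was held by 3 of 41 (7.32%, against 2.98% of all windows), none of them an immunoproteasome gene. The STAT element was held by 2 of 41 (4.88%, against 7.02%), the NF-Y box by 14 (34.1%, against 33.8%), the NF-kB site by 21 (51.2%, against 45.8%) and the E-box by 4 (9.76%, against 6.02%). A match is a run of letters and not a measured binding site.

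The 6 arrays had the same trimmed mean intensity of 100, and Pearson's r between pairs of arrays ran from 0.918 to 0.962 over the tested probe sets. The brighter probe set of Notch1 itself had 3294, 3043 and 3419 in the Notch1f/f tumours, against 3637, 2532 and 2838 in the Notch1+/+ tumours (limma adjusted p = 0.752). The dimmer had 2026, 1346 and 2212 in the Notch1f/f tumours, against 1792, 656 and 568 in the Notch1+/+ tumours (limma adjusted p = 0.319). The groups overlapped on both. Where these probe sets lie relative to the deleted part was not tested, so they do not check the labels. All 9 measured T lineage genes, Cd3d, Cd3e and Cd3g among them, were above the filter on dim probe sets, the 40th percentile of the mean log2 intensity. Their summed intensity was 17985 to 20950 across the Notch1f/f tumours and 14815 to 16923 in Notch1+/+ tumours. For 2 of the 9, Cd3e and Cd8a, every Notch1f/f tumour lay above every Notch1+/+ tumour, as for 9.21% of all genes. Ptcra and Rag1 had lower means in the Notch1f/f tumours. The summed intensity of 8 macrophage genes was 1459, 1431 and 2829 in the Notch1f/f tumours, against 246, 851 and 893 in the Notch1+/+ tumours, and 5 of the 8 were higher without overlap, meaning that all 3 Notch1f/f tumours lay above all 3 Notch1+/+ tumours, as 9.21% of all genes were. The sum of 7 dendritic cell genes was 607, 360 and 3163 in the Notch1f/f tumours, against 98.5, 359 and 199 in the Notch1+/+ tumours, with 2 of 4 genes above the filter higher without overlap and Xcr1 at 8 or less in every tumour. Cd74 and H2-Aa, genes of MHC class II presentation, set that sum in Notch1f/f tumour 3, with 1830 and 1223. Flt3, Siglech and Xcr1 lay under the filter. The sum of 5 B cell genes was 83.9, 109 and 264 in the Notch1f/f tumours, against 39, 62.8 and 66.3 in the Notch1+/+ tumours. The sum of 5 fibroblast genes was 51.5 to 115 in the Notch1f/f tumours, against 215 to 1263 in the Notch1+/+ tumours. All 4 of these genes above the filter had a difference below 0, but 0 were lower without overlap, where 9.14% of all genes were. Col1a2 had 13.2, 39.8 and 71.3 in the Notch1f/f tumours, against 190, 978 and 53.3 in the Notch1+/+ tumours. The sum of 5 neutrophil genes was 112 to 189 in Notch1f/f tumours, against 186 to 331.5 in Notch1+/+ tumours. Gzma set the sum of the 3 NK genes, with 2711 to 4451 across the Notch1f/f tumours and 1584 to 2414 in Notch1+/+ tumours, while Ncr1 was at 4.5 or less. Pecam1 was the only 1 of 4 endothelial genes above the filter, and their sum was 217 to 233 across the Notch1f/f tumours, against 143 to 280.2 in Notch1+/+ tumours. The 7 thymic epithelial genes summed to 53.9 to 110 across the Notch1f/f tumours and 51.7 to 69.4 in Notch1+/+ tumours.

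The genotype comparison asks whether lymphomas with floxed Notch1 differ in their proteasome genes from lymphomas with wild-type Notch1. Most of these genes had overlapping values in the groups, and no gene passed the test. Values did not overlap for 6 genes: lower values of Psmg2, a chaperone of core assembly, and of the cap genes Psmc2, Psmc5, Psmc6 and Psmd11, and a higher value of Psmf1, an inhibitor of the core. Of the 47 genes, 46 lay above the filter, and Psmb11 did not. No gene of the 46 passed an adjusted p of 0.05 in limma, where 0.0185% of 27022 probe sets did, and the adjusted p-values ran from 0.253 to 0.984. At an unadjusted limma p under 0.05, 2 of the 46 were lower, Psmg2 and Psmc6, where 6.21% of 12043 genes were, and 0 were higher, where 6.97% of genes were.

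Values that did not overlap between the groups were lower in the Notch1f/f tumours for 5 of 46 genes, which is 10.9% and near the 9.14% of all genes. They were higher for 1 gene, where 9.21% of all genes were. With each array centred on its median, the counts were 3 lower and 2 higher, and 5.66% and 12.3% of all genes. Leaving out a tumour makes a lack of overlap easier to reach. The lower count was 9 without Notch1+/+ tumour 1 (17% of all genes). It was 8 without Notch1f/f tumour 2 (19.4%), and 11 when tumour 3 of that genotype was omitted (13.4%). The higher count was 3 when Notch1+/+ tumour 3 was omitted (13.8% of all genes) or Notch1f/f tumour 1 was (12.4%). It was 2 when Notch1+/+ tumour 1 was omitted (17.8%), and 2 on omitting the second Notch1f/f tumour (17.6%) or tumour 3 of that group (12.4%).

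**Figure D1:**
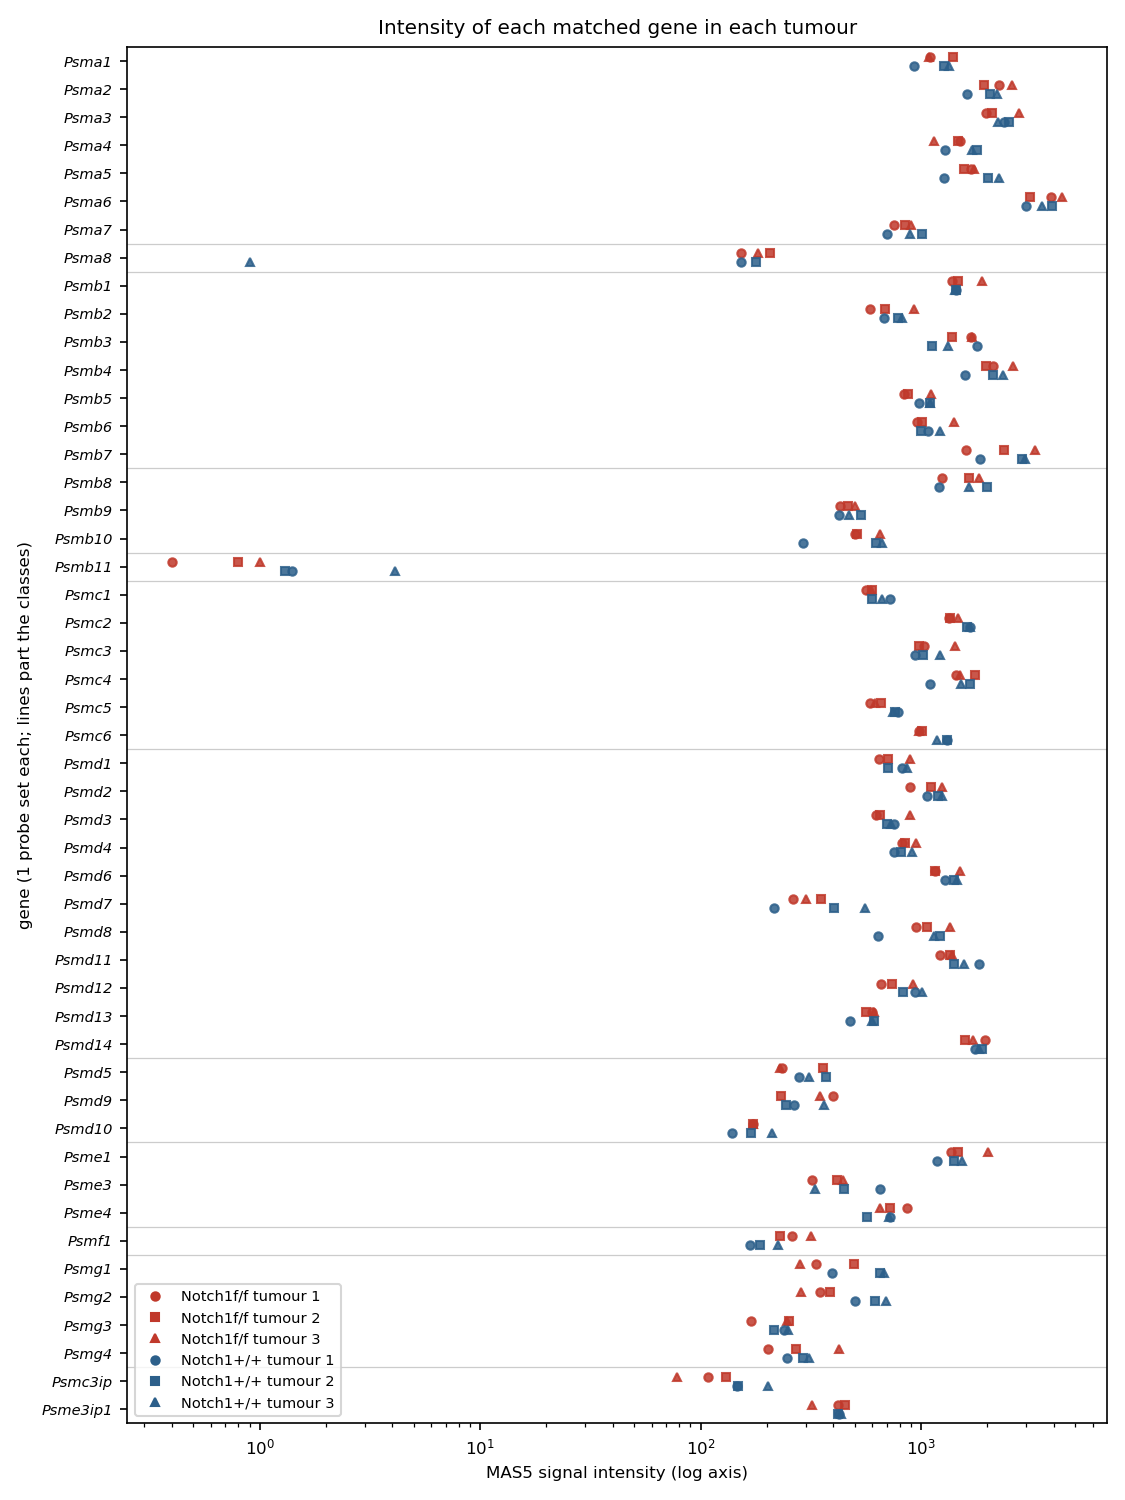
Each row is 1 gene and each point its MAS5 signal intensity in 1 tumour, on a log axis, with Notch1f/f tumours in red above Notch1+/+ tumours in blue. Point shapes number the tumours within a group and do not pair them. For most genes the colours intermingle, Psma8 is at 0.9 in Notch1+/+ tumour 3 alone, and Psmb11 is at 4.1 or less in every tumour.

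The size of the differences was small. The median log2 difference (Notch1f/f minus Notch1+/+, on the scale of log2(intensity + 16)) was -0.03 over the 46 genes and -0.01 over all 12043 genes. The median size of the difference, whatever its sign, was 0.15 over the 46 genes and 0.25 over all genes. Below 0 lay 26 of the 46 genes (56.5%), as did 51.6% of all genes. The median residual SD between tumours of 1 group was 0.22 for the 46 genes and 0.29 for all genes. The 46 genes had intensities of 145 to 3644, with a median of 925, where the median over all genes was 123, and adding 16 shrinks the differences of dim genes more than those of bright ones.

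**Figure D2:**
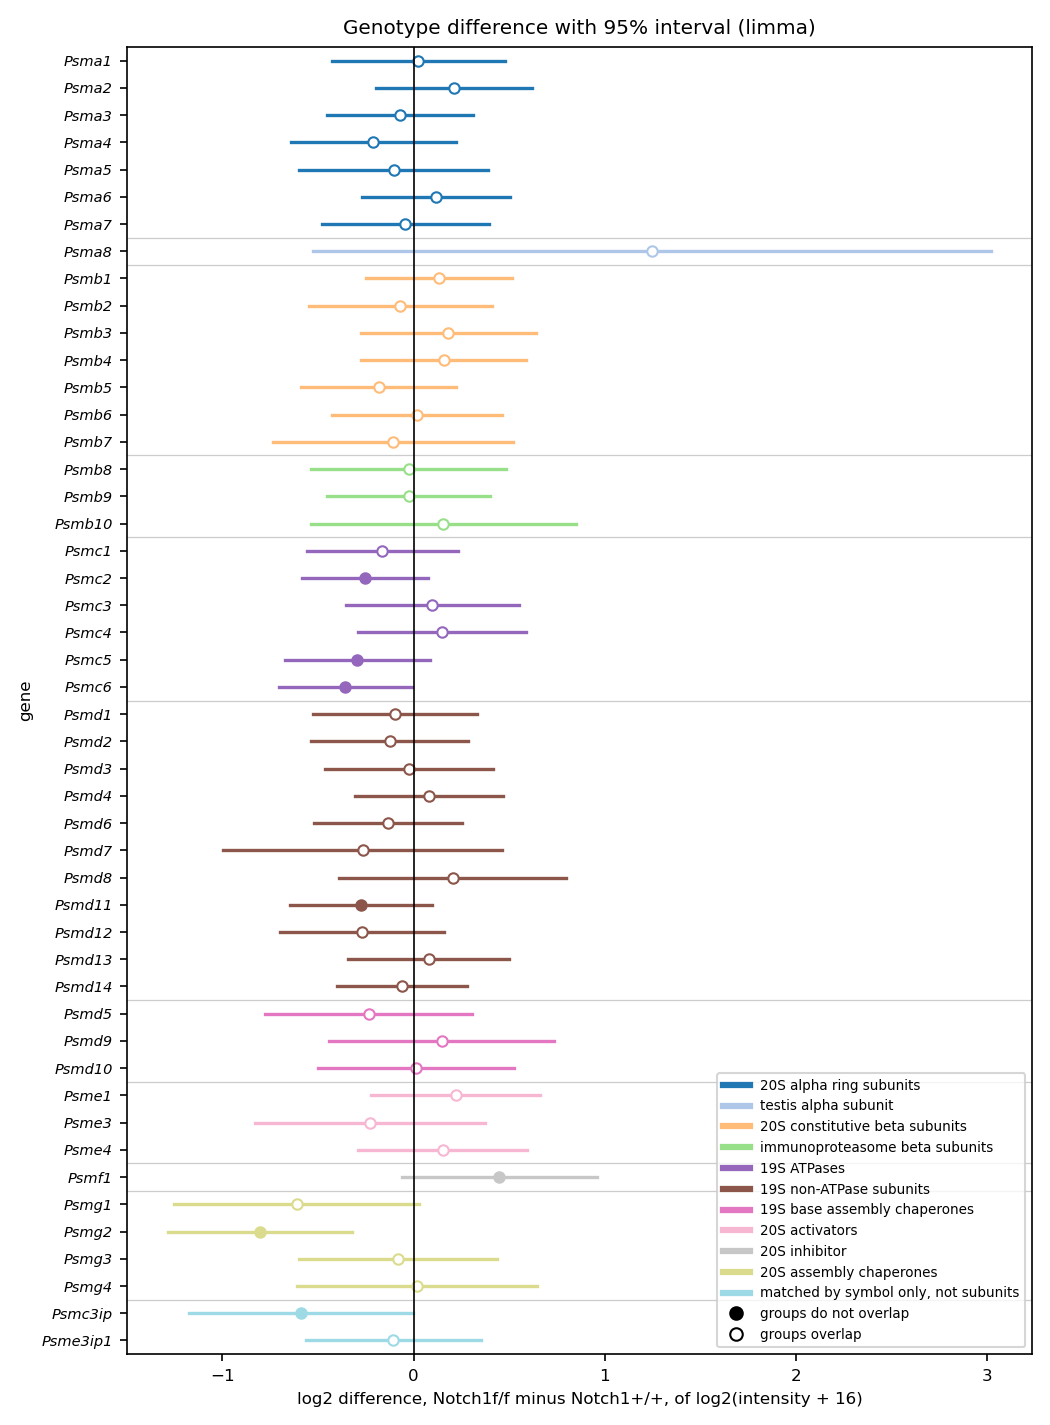
Each row is 1 gene, with the log2 difference (Notch1f/f minus Notch1+/+) as a point and its 95% interval from limma as a line, coloured by class. Filled points are genes whose groups do not overlap. The intervals of the 20S core and immunoproteasome subunits all include 0, Psmg2 has the lowest difference, and Psma8 the widest interval.

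The immunoproteasome subunits did not differ detectably between the genotypes. Psmb8, which replaces Psmb5 and is also known as LMP7, had intensities of 1244, 1653 and 1834 in the Notch1f/f tumours, against 1209, 2001 and 1642 in the Notch1+/+ tumours. The groups overlapped, with the lowest value in Notch1+/+ tumour 1 and the highest in Notch1+/+ tumour 2. Its log2 difference was -0.02 ± 0.23 (limma's moderated SE, as after every log2 difference, with 3 tumours a group), with a 95% interval from -0.54 to 0.49 (limma adjusted p = 0.972). A dimmer probe set of Psmb8 gave 65.9, 74.8 and 73.3 in the Notch1f/f tumours, against 49.9, 66.8 and 46.5 in the Notch1+/+ tumours. Its groups overlapped too, with a log2 difference of the other sign, 0.32 ± 0.24 (limma adjusted p = 0.566). Psmb9, also known as LMP2, which replaces Psmb6, had 429.6, 467 and 502 in the Notch1f/f tumours, against 424, 534 and 470.4 in the Notch1+/+ tumours. It stayed within a narrow band in all 6 tumours, with a log2 difference of -0.03 ± 0.19 and a 95% interval from -0.45 to 0.40 (limma adjusted p = 0.963). Psmb10, or MECL-1, which replaces Psmb7, had 500.5, 514 and 650.3 in the Notch1f/f tumours, against 290.1, 622 and 662 in the Notch1+/+ tumours. Notch1+/+ tumour 1 alone was low for this gene, and the other 5 tumours overlapped. Its log2 difference was 0.15 ± 0.31, with a 95% interval from -0.54 to 0.85 (limma adjusted p = 0.849), and it was -0.21 without Notch1+/+ tumour 1. All 3 genes were lowest in that tumour. It also had the lowest summed macrophage, dendritic and B cell intensities and the highest neutrophil sum, 331.5. Its T lineage (14815), thymic epithelial (51.7) and endothelial (143.1) sums were lowest only by a small margin. Next lowest was Notch1+/+ tumour 2 for the first (14958), Notch1f/f tumour 1 for the second (53.9) and Notch1+/+ tumour 3 for the third (143.7). The part of those cells in this order was not tested. In bulk tumours, fewer cells of a type and less RNA per cell cannot be told apart.

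The constitutive catalytic subunits overlapped between the groups too. Psmb5, which carries the chymotrypsin-like site, had 833, 869.9 and 1111 in the Notch1f/f tumours, against 978, 1102 and 1099 in the Notch1+/+ tumours. Its groups overlapped only through Notch1f/f tumour 3, and the log2 difference was -0.18 ± 0.18 (limma adjusted p = 0.672). Psmb6, with the caspase-like site, had 960.1, 1006 and 1411 in the Notch1f/f tumours, against 1078, 1004 and 1213 in the Notch1+/+ tumours, with a log2 difference of 0.02 ± 0.20 (limma adjusted p = 0.976). Psmb7, with the trypsin-like site, had 1594, 2378 and 3291 in the Notch1f/f tumours, against 1844, 2885 and 2952 in the Notch1+/+ tumours. Both groups spanned a wide range, and the log2 difference was -0.11 ± 0.28 with a 95% interval from -0.74 to 0.52 (limma adjusted p = 0.881).

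Setting each immunoproteasome subunit against its counterpart within an array removes the scaling of that array. The level of such a ratio depends on the probes, so only its change between groups was read. The log2 ratio of Psmb8 to Psmb5 was 0.57, 0.91 and 0.72 in the Notch1f/f tumours, against 0.30, 0.85 and 0.57 in the Notch1+/+ tumours, a difference of 0.16. That of Psmb9 to Psmb6 was -1.13, -1.08 and -1.46 in the Notch1f/f tumours, against -1.31, -0.89 and -1.34 in the Notch1+/+ tumours, a difference of -0.04. For Psmb10 over Psmb7 it was -1.64, -2.17 and -2.31 in the Notch1f/f tumours, against -2.60, -2.18 and -2.13 in the Notch1+/+ tumours, a difference of 0.26. The groups overlapped in all 3 ratios. The exact two-sided permutation p over the 6 tumours was 0.5 for the first ratio, 0.9 for the second and 0.5 for the third, or 0.75, 0.9 and 0.75 adjusted over the 3 ratios. The smallest p that 3 against 3 tumours allow is 0.1. With 1 tumour left out in turn, the difference of the Psmb8 ratio ran from 0.02 to 0.30, that of the Psmb10 ratio from 0.06 to 0.40, and that of the Psmb9 ratio from -0.12 to 0.10, so its sign was not settled. With the probe sets of a gene averaged, the difference of the Psmb8 ratio was 0.33 (exact permutation p = 0.2).

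**Figure D3:**
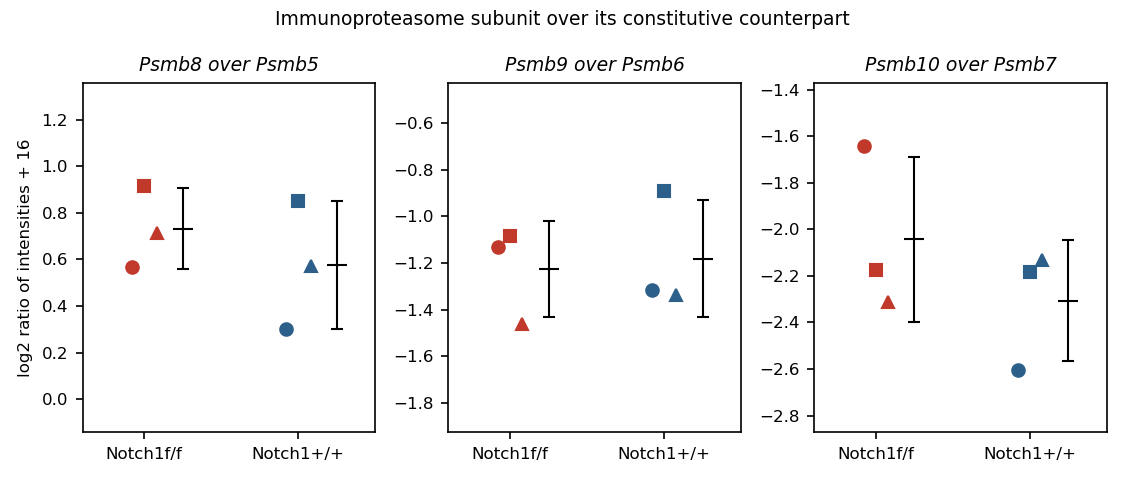
Each panel plots the log2 ratio, within an array, of an immunoproteasome subunit to the constitutive subunit it replaces, with Notch1f/f tumours in red on the left and Notch1+/+ tumours in blue on the right. Circles, squares and triangles are tumours 1, 2 and 3, and the bars are the mean and SD (n = 3). The groups overlap in each panel, and the Psmb10 ratio of -1.64 in Notch1f/f tumour 1 and of -2.60 in Notch1+/+ tumour 1 are its extremes.

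Psmb8 and Psmb9 lie on chromosome 17 with Tap1 between them and Tap2 next to Psmb8, with 0 other protein-coding genes in between. Tap1 and Tap2 encode the peptide transporter that feeds MHC class I. Tap1 had 390.3, 292 and 296 in the Notch1f/f tumours, against 355, 261 and 267 in the Notch1+/+ tumours. Tap2 had 584, 608 and 929 in the Notch1f/f tumours, against 944, 934 and 646 in the Notch1+/+ tumours. Both genes overlapped between the groups, with log2 differences of 0.14 ± 0.22 for Tap1 and -0.26 ± 0.24 for Tap2. Of 15 measured genes of antigen processing and interferon control, 9 had a difference above 0 and 6 below, with a median of 0.22. Values of 3 of them were higher without overlap (20.0%, against 9.21% of all genes), none was lower, and 0 of 15 passed limma, while 3 had an unadjusted limma p under 0.05, all higher, as 6.97% of all genes did. B2m, the light chain of MHC class I, had 5074, 5052 and 4912 in the Notch1f/f tumours, against 2802, 2791 and 4096 in the Notch1+/+ tumours, with a log2 difference of 0.66 ± 0.17 (limma adjusted p = 0.248). Tapbp, which holds the class I molecule at the transporter, had 767, 756 and 1019.8 in the Notch1f/f tumours, against 561, 504 and 565 in the Notch1+/+ tumours, with a log2 difference of 0.62 ± 0.19 (limma adjusted p = 0.29). These groups lay apart for both genes. H2-K1, a class I heavy chain, had 837, 659.8 and 894 in the Notch1f/f tumours, against 481, 519 and 674 in the Notch1+/+ tumours. H2-D1, another, had 1330.3, 1058 and 1342 in the Notch1f/f tumours, against 625, 1026 and 1079 in the Notch1+/+ tumours. Both overlapped by a small margin, with log2 differences of 0.51 ± 0.21 and 0.48 ± 0.23. Irf1, an interferon-induced factor known to activate Psmb9 and Tap1, had 461, 418 and 569 in the Notch1f/f tumours, against 410, 332 and 349.5 in the Notch1+/+ tumours, again without overlap (limma adjusted p = 0.429).

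Psmb11, the subunit of the thymic cortical epithelium, had 0.4, 0.8 and 1 in the Notch1f/f tumours, against 1.4, 1.3 and 4.1 in the Notch1+/+ tumours. Its mean lay under the filter, so the gene was not tested. Its neighbour on chromosome 14 is Psmb5, with 0 protein-coding genes between.

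The alpha ring gates the core. The 7 genes Psma1 to Psma7 had log2 differences from -0.21 to 0.21 with a median of -0.04, and 0 of the 7 had groups without overlap, where 9.14% of all genes were lower and 9.21% higher in that way. Psma4 had the lowest, with 1497, 1466 and 1149 in the Notch1f/f tumours, against 1288, 1787 and 1703 in the Notch1+/+ tumours (log2 difference -0.21 ± 0.19, limma adjusted p = 0.644). Psma2 had the highest, with 2247, 1938 and 2591 in the Notch1f/f tumours, against 1609, 2048 and 2206 in the Notch1+/+ tumours (log2 difference 0.21 ± 0.18, limma adjusted p = 0.622). In both genes the groups overlapped. Psma1 had 1100.1, 1396 and 1085 in the Notch1f/f tumours, against 927, 1277 and 1336 in the Notch1+/+ tumours. Psma5 had 1692, 1567 and 1742 in the Notch1f/f tumours, against 1269.8, 2014 and 2248 in the Notch1+/+ tumours. Psma6 had 3896, 3118 and 4381 in the Notch1f/f tumours, against 3004, 3932 and 3533 in the Notch1+/+ tumours. Notch1+/+ tumour 1 was the lowest of the 6 tumours for each of these 3 genes, and for 5 of the 7 alpha genes in all. The 2 brightest probe sets of Psma6 both lay above 0, at 0.12 and 0.07, and its 2 dimmer ones below, and for Psma1 3 of 4 probe sets lay above 0.

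Psma8, an alpha subunit known from the testis, where it takes part in meiosis, had 152, 206 and 182 in the Notch1f/f tumours, against 152, 179 and 0.9 in the Notch1+/+ tumours. It was thus near the same level in 5 tumours and listed at 0.9 in Notch1+/+ tumour 3. The log2 difference of 1.25 ± 0.79 (limma adjusted p = 0.5) rested on that tumour and was 0.10 without it. The gene was read by 1 probe set, so no other probe set bears on the low value.

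The structural beta subunits Psmb1, Psmb2, Psmb3 and Psmb4, which complete the inner rings, had log2 differences from -0.07 to 0.18. Psmb3 had 1689.9, 1376 and 1697 in the Notch1f/f tumours, against 1797, 1126 and 1329.8 in the Notch1+/+ tumours on its brighter probe set, with a log2 difference of 0.18 ± 0.20, while its dimmer one was at -0.05. Psmb4 had 2124, 1981 and 2616 in the Notch1f/f tumours, against 1589, 2121 and 2346 in the Notch1+/+ tumours. Psmb1 had 1386, 1475 and 1893 in the Notch1f/f tumours, against 1440, 1438 and 1420.3 in the Notch1+/+ tumours. Their groups overlapped, and the Psmb4 difference, 0.16, was -0.0042 without Notch1+/+ tumour 1, while that of Psmb1, 0.13, was -0.0028 without Notch1f/f tumour 3. A second bright probe set of Psmb4 gave 1635, 1657 and 1576 in the Notch1f/f tumours, against 1186, 1296 and 1094 in the Notch1+/+ tumours. Here every Notch1f/f tumour lay above every Notch1+/+ tumour, with a log2 difference of 0.44 ± 0.15 (limma adjusted p = 0.297), so the probe sets of Psmb4 differed in whether the groups overlap. Notch1f/f tumour 3 was the highest of the 6 tumours for 6 of the 7 constitutive beta genes, and Notch1f/f tumour 1 the lowest for 5 of the 7. The 14 constitutive core genes as a whole had 7 differences above 0 and 7 below, with a median of -0.01.

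Among the ATPases of the cap, which unfold the substrate and thread it into the core, 4 of 6 had a difference below 0 (as did 51.6% of all genes) and 3 of 6 had groups that did not overlap, all lower in the Notch1f/f tumours (as were 9.14% of all genes). Psmc6 had 982, 1008 and 977 in the Notch1f/f tumours, against 1313, 1316 and 1186 in the Notch1+/+ tumours. Every Notch1f/f tumour lay below every Notch1+/+ tumour, with a log2 difference of -0.36 ± 0.15 and a 95% interval from -0.70 to -0.01 (limma adjusted p = 0.363). Its 2 dimmer probe sets overlapped between the groups, at -0.08 and 0.14. Psmc5 had 585, 655 and 621 in the Notch1f/f tumours, against 782, 762 and 746 in the Notch1+/+ tumours, with a log2 difference of -0.29 ± 0.17 (limma adjusted p = 0.458). Psmc2 had 1334, 1349.6 and 1475 in the Notch1f/f tumours, against 1672, 1616 and 1676 in the Notch1+/+ tumours, with a log2 difference of -0.25 ± 0.15 (limma adjusted p = 0.464). In both genes every Notch1f/f tumour lay below every Notch1+/+ tumour. A dimmer probe set of Psmc2 gave 836, 979 and 1016 in the Notch1f/f tumours, against 1080.3, 1283 and 1468 in the Notch1+/+ tumours, likewise without overlap, with a log2 difference of -0.42 ± 0.18. With each array centred on its median, Psmc5 and Psmc6 were lower without overlap, as were 5.66% of all genes, and Psmc2 overlapped. With the probe sets of a gene averaged, Psmc2 and Psmc5 were lower without overlap, as were 10.3% of all genes. Psmc6 then overlapped, with a log2 difference of -0.10.

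The other 3 ATPases did not follow this order. Psmc1 had 566, 600 and 594 in the Notch1f/f tumours, against 719.8, 599 and 662 in the Notch1+/+ tumours, where the groups met at 599 and 600, with a log2 difference of -0.16 ± 0.17. Psmc4 had 1438, 1758 and 1502 in the Notch1f/f tumours, against 1100.5, 1660.2 and 1521 in the Notch1+/+ tumours, with a log2 difference of 0.15 ± 0.19. Psmc3 had 1036, 980.2 and 1428 in the Notch1f/f tumours, against 940.3, 1026 and 1222 in the Notch1+/+ tumours, with a log2 difference of 0.10 ± 0.20. Psmc4 was lowest in Notch1+/+ tumour 1, and its difference was -0.03 without that tumour. The tumour medians of the 6 ATPases, as log2 deviations from each gene's mean, were -0.16, -0.11 and -0.05 in the Notch1f/f tumours, against 0.16, 0.12 and 0.10 in the Notch1+/+ tumours.

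The remaining subunits of the cap bind ubiquitin, remove it or hold the cap together. Of 11 such genes with a Psmd symbol, 8 had a difference below 0 and 3 above, with a median of -0.10 and a range from -0.27 to 0.21. Psmd11, a scaffold subunit of the lid, was the 1 of 11 lower without overlap (9.09%, where 9.14% of all genes were), with 1220.5, 1349 and 1386 in the Notch1f/f tumours, against 1828, 1414 and 1568 in the Notch1+/+ tumours. The log2 difference was -0.27 ± 0.16 (limma adjusted p = 0.482). Its probe sets disagreed: of the 4 brightest, 2 lay below 0, at -0.27 and -0.20, and 2 above, at 0.17 and 0.19. The second brightest gave 769, 763 and 846 in the Notch1f/f tumours, against 689, 729 and 695 in the Notch1+/+ tumours, higher without overlap and thus opposite to the brightest. Psmd11 also overlapped between the groups with each array centred on its median, and with its probe sets averaged. Psmd12, another scaffold subunit of the lid, had 659, 742 and 917 in the Notch1f/f tumours, against 940, 829 and 1015 in the Notch1+/+ tumours, with a log2 difference of -0.27 ± 0.19. Psmd8 had the highest difference of the 11, with 952, 1061 and 1359 in the Notch1f/f tumours, against 641, 1214 and 1141 in the Notch1+/+ tumours (log2 difference 0.21 ± 0.26), and it was -0.082 without Notch1+/+ tumour 1. Both genes overlapped between the groups.

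The ubiquitin receptor Psmd4 had 822, 847 and 952 in the Notch1f/f tumours, against 753, 815 and 907 in the Notch1+/+ tumours on its brightest probe set, at a log2 difference of 0.08 ± 0.17. A second probe set of Psmd4 was at -0.28, so its direction was not settled. Psmd2, a scaffold of the base to which ubiquitin-like domains dock, had 888, 1113 and 1239 in the Notch1f/f tumours, against 1066, 1193 and 1250.5 in the Notch1+/+ tumours. Psmd14, the deubiquitinase of the lid, had 1956, 1587 and 1716 in the Notch1f/f tumours, against 1754, 1882 and 1832 in the Notch1+/+ tumours. These genes overlapped between the groups, with log2 differences of -0.12 ± 0.18 for Psmd2 and -0.06 ± 0.15 for Psmd14. Psmd7, the partner of Psmd14, had 261, 350.5 and 299.7 in the Notch1f/f tumours, against 215, 405 and 559.5 in the Notch1+/+ tumours, with a wide spread in the Notch1+/+ group and a log2 difference of -0.27 ± 0.32. Psmd13 had 598, 564 and 610.3 in the Notch1f/f tumours, against 476, 613 and 596 in the Notch1+/+ tumours, with a log2 difference of 0.08 ± 0.19. The dimmest tested probe sets of Psmd2, Psmd7 and Psmd13 had the other sign, at 0.17, 0.11 and -0.31. That of Psmd13 was lower without overlap, as were 10.4% of all tested probe sets. Psmd1, Psmd3 and Psmd6 had log2 differences of -0.10, -0.02 and -0.13. A second bright probe set of Psmd6 was at -0.36, and its groups overlapped. Sem1, a further cap gene, had 1933, 1764 and 2250 in the Notch1f/f tumours, against 1610, 1664 and 1705 in the Notch1+/+ tumours. It was higher without overlap, as were 9.21% of all genes, with a log2 difference of 0.25 ± 0.15 (limma adjusted p = 0.495). Over the 17 cap genes with a Psmc or Psmd symbol, which leave out Sem1, the median was -0.12, with 12 differences below 0. The median was between -0.22 and -0.06 with 1 tumour left out in turn. It was -0.04 with each array centred on its median, where the median of all genes was 0.07, -0.08 with probe sets averaged and -0.19 with quantile normalisation.

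The lowest difference of the 46 genes was in an assembly factor of the core. Psmg1 and Psmg2 form a pair of chaperones on which the alpha ring is built. Psmg2 had 349.6, 386 and 284 in the Notch1f/f tumours, against 502, 620.2 and 693 in the Notch1+/+ tumours. Every Notch1f/f tumour lay below every Notch1+/+ tumour. The means were 340.0 ± 51.5 across the Notch1f/f tumours and 605 ± 96.2 across the Notch1+/+ tumours (SD, n = 3 each). The log2 difference was -0.80 ± 0.21, with a 95% interval from -1.28 to -0.32 (limma adjusted p = 0.253). A second probe set of nearly the same brightness gave 405, 482 and 277 in the Notch1f/f tumours, against 589.5, 531 and 520.4 in the Notch1+/+ tumours, again without overlap, with a log2 difference of -0.51 ± 0.23 (limma adjusted p = 0.377). Psmg1, its partner, had 333, 497 and 283 in the Notch1f/f tumours, against 394, 654 and 680.4 in the Notch1+/+ tumours. Notch1f/f tumours 1 and 3 were below all Notch1+/+ tumours and Notch1f/f tumour 2 was not, with a log2 difference of -0.61 ± 0.28 (limma adjusted p = 0.382). Psmg3 and Psmg4, which form the other pair, overlapped between the groups. Psmg3 had 169, 253 and 247 in the Notch1f/f tumours, against 239, 215 and 248 in the Notch1+/+ tumours. Psmg4 had 202, 270 and 424 in the Notch1f/f tumours, against 247, 290.4 and 310.5 in the Notch1+/+ tumours. Their log2 differences were -0.08 ± 0.23 for Psmg3 and 0.02 ± 0.28 for Psmg4. A dimmer probe set of Psmg3 was at 0.11. Leaving out 1 tumour in turn kept Psmg2 between -0.93 and -0.68 and Psmg1 between -0.86 and -0.45, at limma adjusted p-values of 0.116 to 0.571 for Psmg2 and 0.181 to 0.686 for Psmg1.

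The assembly chaperones of the cap had overlapping values. Psmd5 had 234, 359 and 230.4 in the Notch1f/f tumours, against 280.3, 371 and 312 in the Notch1+/+ tumours. Psmd9 had 399, 233 and 347 in the Notch1f/f tumours, against 265, 244 and 362 in the Notch1+/+ tumours. Psmd10, known as the oncoprotein gankyrin, had 172, 172 and 172 in the Notch1f/f tumours, against 139, 169.7 and 210 in the Notch1+/+ tumours, where the 3 Notch1f/f tumours were almost equal and lay inside the range of the others. The log2 differences of these 3 genes were -0.23 ± 0.24, 0.15 ± 0.26 and 0.01 ± 0.23. Dimmer probe sets of Psmd9 were at -0.02 and 0.47.

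Regulators of the core had differences on both sides of 0. Psmf1, which encodes the inhibitor PI31, had 259.9, 229 and 318 in the Notch1f/f tumours, against 168, 185 and 224 in the Notch1+/+ tumours. All Notch1f/f tumours lay above all Notch1+/+ tumours, by a narrow margin, with a log2 difference of 0.45 ± 0.23 and a 95% interval from -0.06 to 0.96 (limma adjusted p = 0.41). Its 3 dimmer probe sets were at 0.09, 0.02 and -0.20. Psme1, a subunit of the interferon-induced activator that often caps immunoproteasomes, had 1367, 1474 and 2018 in the Notch1f/f tumours, against 1185, 1413 and 1526 in the Notch1+/+ tumours, with a log2 difference of 0.22 ± 0.20 (limma adjusted p = 0.634). Psme3, the nuclear activator, had 322, 417 and 441 in the Notch1f/f tumours, against 651, 446 and 332 in the Notch1+/+ tumours, with a log2 difference of -0.23 ± 0.27, which was 0.02 without Notch1+/+ tumour 1. Its dimmer probe set gave 137, 239 and 153 in the Notch1f/f tumours, against 289, 272 and 247 in the Notch1+/+ tumours. On that probe set every Notch1f/f tumour lay below every Notch1+/+ tumour, with a log2 difference of -0.60 ± 0.25 (limma adjusted p = 0.348). Psme4, an activator that acts on histones during sperm development, had 864, 726 and 649 in the Notch1f/f tumours, against 724, 566 and 716 in the Notch1+/+ tumours, with a log2 difference of 0.15 ± 0.20. A dimmer probe set of Psme4 was at -0.54, against 0.15 and 0.10 for the 2 brighter ones, so its probe sets disagreed.

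Tumours of 1 genotype differed among themselves. Of the 46 genes, 17 had their minimum in Notch1f/f tumour 1 (37.0%) and 18 theirs in Notch1+/+ tumour 1 (39.1%), while these tumours were the lowest for 18.6% and 18.7% of all genes. Notch1f/f tumour 3 was the highest for 18 of the 46 (39.1%), where it was the highest for 22.4% of all genes. The tumour medians of the 14 constitutive core genes, as log2 deviations, were -0.10, -0.10 and 0.27 in the Notch1f/f tumours, against -0.22, 0.12 and 0.14 in the Notch1+/+ tumours. The group means of these medians differed by 0.01, while the range within a group was 0.37 across the Notch1f/f tumours and 0.36 in Notch1+/+ tumours. For the 3 immunoproteasome genes the medians were -0.12, -0.01 and 0.22 in the Notch1f/f tumours, against -0.37, 0.25 and 0.06 in the Notch1+/+ tumours. Of the 6 classes plotted by tumour, the ATPases had the lowest range within a group, at 0.11 across the Notch1f/f tumours and 0.06 in Notch1+/+ tumours, and the group means differed by -0.23. Notch1f/f tumour 3, the highest for the core, also had the highest summed T lineage, macrophage, dendritic, B cell, NK and thymic epithelial intensities, whose part in its level was not tested.

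**Figure D4:**
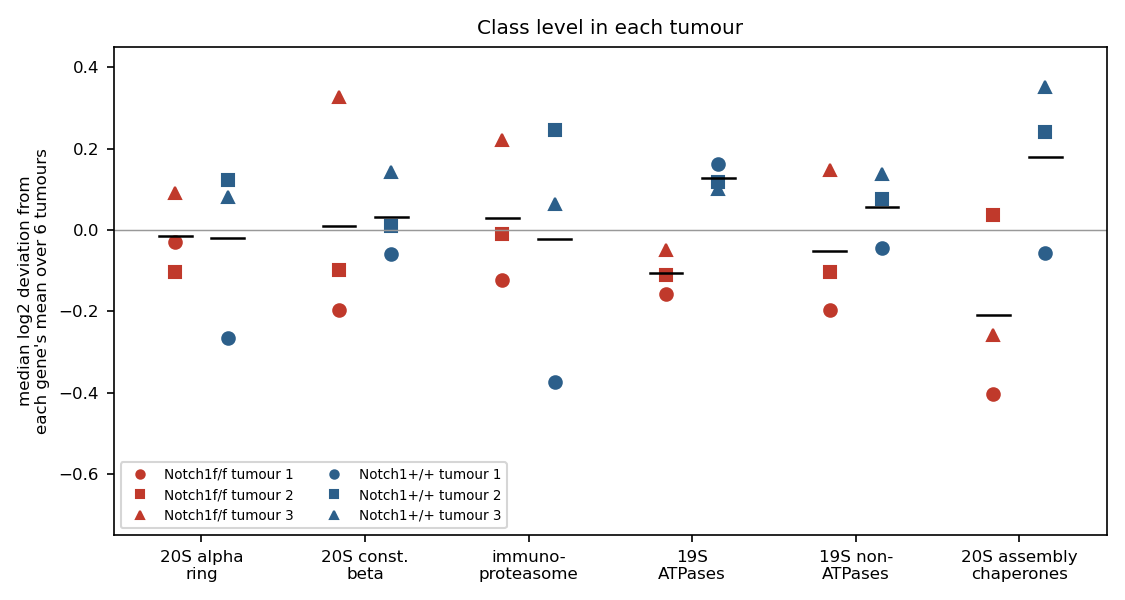
Each point is 1 tumour's median, over the genes of a class, of the log2 deviation from each gene's mean over the 6 tumours. Notch1f/f tumours are red and on the left of each class, Notch1+/+ tumours blue, shapes number the tumours, and bars are the mean of 3 tumours. The ATPase medians are -0.16 to -0.05 across the Notch1f/f tumours and 0.10 to 0.16 in Notch1+/+ tumours, while the other classes overlap.

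Genes that work with the proteasome were counted from a list of 29 symbols, of which 19 were measured. Of the 19, 9 had a difference above 0 and 10 below, with a median of -0.03. Values were lower without overlap for 4 of 19 (21.1%, against 9.14% of all genes) and higher for 1, Sem1 (against 9.21%). Of these 19, 0 passed limma, while 2 had an unadjusted limma p under 0.05, both lower, as 6.21% of all genes did. Uchl5, a deubiquitinase of the cap, had 774, 857 and 784 in the Notch1f/f tumours, against 1132, 1205 and 1153 in the Notch1+/+ tumours, with a log2 difference of -0.52 ± 0.16 (limma adjusted p = 0.29). Ublcp1, a phosphatase of the nuclear proteasome, had 202, 275 and 179 in the Notch1f/f tumours, against 349, 343 and 316 in the Notch1+/+ tumours, with a log2 difference of -0.61 ± 0.22 (limma adjusted p = 0.312). In both, all Notch1f/f tumours lay below all Notch1+/+ tumours. Nfe2l2, the factor that binds antioxidant response elements, had 91.4, 397 and 33.8 in the Notch1f/f tumours, against 257, 361 and 396 in the Notch1+/+ tumours. Notch1f/f tumours 1 and 3 were low and Notch1f/f tumour 2 was the highest of the 6, with a log2 difference of -1.42 ± 0.63 (limma adjusted p = 0.369). Ufd1, a cofactor that delivers ubiquitinated proteins with Vcp, had 411, 269 and 396 in the Notch1f/f tumours, against 172, 288 and 292 in the Notch1+/+ tumours. Notch1f/f tumour 2 lay below 2 of the Notch1+/+ tumours, so the groups overlapped. Pomp, the maturation factor of the core, had 1379, 1369 and 1953 in the Notch1f/f tumours, against 1618, 1290.4 and 1529.5 in the Notch1+/+ tumours. Nfe2l1, which induces proteasome genes when the proteasome is inhibited, had 96.1, 128 and 109 in the Notch1f/f tumours, against 148, 74.7 and 104 in the Notch1+/+ tumours. Both overlapped, with log2 differences of 0.07 ± 0.19 for Pomp and 0.06 ± 0.28 for Nfe2l1.

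The 2 genes matched by symbol alone were kept apart from these counts. Psmc3ip, a factor of homologous recombination, had 108, 131 and 78.4 in the Notch1f/f tumours, against 147, 148 and 203 in the Notch1+/+ tumours, without overlap, and a log2 difference of -0.59 ± 0.26 (limma adjusted p = 0.366). Its second probe set overlapped at 123 and 128. Psme3ip1, which encodes a protein that binds the Psme3 product, had 421, 454 and 321 in the Notch1f/f tumours, against 424, 418 and 435 in the Notch1+/+ tumours, with a log2 difference of -0.11 ± 0.20.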

How the data were processed

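The values are MAS5 signal intensities that the authors deposited, 1 array per tumour, per the submitters' processing notes, with the software version not given in the sources used here. Each array's 2% trimmed mean was 100, so no further scaling was applied. Probe sets with 1 platform symbol (34945) were named, and 932 with several were not. Intensities became log2(intensity + 16). Of the probe sets, 27022 lay above the 40th percentile of mean log2 (4.56) and were fitted with limma 3.58.1 (lmFit, eBayes with trend) in R 4.3.3, with Benjamini-Hochberg adjustment over all of them. Each gene was read by its brightest probe set. The fit was tested on simulated data. Precision is limited by 3 arrays a group, and replicates, numbered in accession order, were separate mice. The members and gene lists were chosen with earlier results of these data known. The naming rule took the 3 immunoproteasome genes and their counterparts, the activators, Psmb11, up to 10 members with the smallest p in each direction, members whose probe sets above the filter differed in sign and, from each of 2 lists (proteasome partners, antigen processing), the 4 genes with the smallest p. Tap1, Tap2, Irf1, Pomp, Nfe2l1, Sem1 and the remaining subunits were given after their values were seen. List genes without a probe set of 1 symbol, such as Lck and Adrm1, were not analysed here. Alternatives varied the pseudocount, filter, scaling, eBayes trend, array weights, probe sets and tumours.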

Additional observations from a re-analysis of the deposited data

How the results depend on the processing

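No proteasome gene passed an adjusted p of 0.05 under any alternative, and the named genes' limma adjusted p-values ran from 0.111 to 0.999 over all settings. With median centring, the count lower without overlap was 3 (5.66% of all genes) and the count higher 2 (12.3%). When all probe sets of a gene were averaged, 4 were lower (10.3% of all genes) and 2 higher (8.62%). The 4 were Psmc2, Psmc5, Psmd6 and Psmg2 and the 2 were Psmb1 and Psmb4, while Psmc6, Psmd11 and Psmf1 overlapped. With 1 tumour left out in turn, the counts ran from 6 to 11 lower and from 1 to 3 higher. The shares of all genes then ran from 11.7% to 19.4% lower and from 12.4% to 17.8% higher. Quantile normalisation turned Psmb6 to -0.032. Median centring turned Psmb8 to 0.061 and Psmb9 to 0.060. Array weights turned Psmb10 to -0.076, Psmb6 to -0.018 and Psmd8 to -0.022, and the mean of probe sets turned Psmb8 to 0.15. Leaving out tumours gave ranges that cross 0: -0.21 to 0.36 for Psmb10, -0.45 to 0.018 for Psme3, -0.0042 to 0.27 for Psmb4, -0.082 to 0.37 for Psmd8, -0.026 to 0.27 for Psmc4, -0.22 to 0.14 for Psmb8, -0.10 to 0.057 for Psmb9, -0.15 to 0.12 for Psmb6, -0.36 to 0.16 for Psmb7, -0.0028 to 0.22 for Psmb1 and -0.12 to 0.10 for the Psmb9 to Psmb6 ratio. The median log2 differences crossed 0 too: -0.21 to 0.14 over the immunoproteasome genes, -0.10 to 0.086 over the constitutive core and -0.13 to 0.037 over all 46 genes. Median centring made them 0.061, 0.074 and 0.052 in that order, where the median of all genes was 0.071, and averaging probe sets made the immunoproteasome median 0.15. The cause was not tested. The other 521 of 556 values kept their direction and side of the threshold, or stayed within the spread. Some of these could not change. The filter and eBayes trend settings do not alter a gene's log2 difference, and median centring does not alter a ratio within an array. No paired analysis was possible because the labels give the tumours no shared numbers. Signals near background, such as those of Psmb11, limit what 3 arrays a group can show.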
